A study of Mus musculus with 8 samples.

Results

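Solute carriers are membrane proteins that move nutrients, metabolites and ions into and out of cells and organelles. The genes described here were chosen by name and level: protein-coding genes called Slc plus a number whose mean FPKM over 8 libraries was at least 1. FPKM counts sequenced fragments per gene, scaled by gene length and by a factor for each library. The Slc1a, Slc3a, Slc7a and Slc38a families, which carry amino acids, and the Slc11a, Slc40a, Slc48a, Slc30a and Slc39a families, which carry iron, haem and zinc, were left out. So were the glucose carrier Slc2a1 and the lactate carriers Slc16a1 and Slc16a3. This left 131 of the 54532 genes in the table. Of 371 protein-coding Slc genes, 67 were left out by family or name, and 173 of the other 304 fell short of the level, 61 of them with no read in any library. The rule uses no fold change or test, but its mean runs over treated libraries. Slc4a11, Slc45a3 and Slc15a2 reached an FPKM of 1 in no 0 h library, Slc6a9 and Slc22a23 in no PBS library and Slc5a6 in no spermine library, so these 6 entered through the groups where they are high, and their changes between those groups are given as a description and support nothing. The members nearest the limit were Slc17a9 with a mean FPKM of 1.02 and Slc22a21 with 1.13, and the genes just short of it were Slc24a3 with 0.922 and Slc24a5 with 0.886.

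Mouse bone marrow derived macrophages, phagocytes grown from marrow, were profiled as polyadenylated RNA in 4 groups of 2 libraries. Cells had received PBS, a salt buffer, or spermine, a polyamine that cells also make themselves, and were harvested before (0 h) or after 3 h with IFN-β, a type I interferon and inducer of antiviral genes. Group names below join treatment and time, as in PBS 0 h or spermine 3 h. DMSO is the control in the series text but PBS in the sample labels, and the extraction protocol speaks of blood where the labels name macrophages. The sources used here give no mouse strain, sex or age, no doses of spermine or IFN-β and no length of the spermine treatment. A group held for 3 h without IFN-β is not among the labels, so a change from 0 h to 3 h also holds any effect of the 3 h alone. The labels do not say whether the libraries of a group came from separate animals or cultures, so the spread behind the p-values may be technical. The defining macrophage markers were present, 6 of 6, with a summed FPKM between 2021 and 3032. Within this list Fcgr1 ran from 32.9 in a spermine 0 h library to 638 in a PBS 3 h library. Mertk ran from 5.62 to 34.2 between the same groups. The 3 T cell markers were at 0, and summed markers of B cells, NK cells, erythroid cells and fibroblasts stayed below 1 in every library. Among 3 dendritic cell markers only Xcr1 reached an FPKM of 1, and the summed list moved with treatment, at 0.131 and 0.170 in PBS 0 h, 3.02 and 4.36 in PBS 3 h, 1.09 and 1.15 in spermine 0 h, and 5.56 and 6.44 in spermine 3 h. Flt3 and Zbtb46 stayed below 0.05, and the part of this in the results below was not tested. The 4 neutrophil markers summed to between 5.65 and 9.67 with Ly6g at 0. The summed platelet markers were highest in spermine 0 h, at 2.01 and 2.81, against at most 0.898 elsewhere, which was nearly all Ppbp, since Itga2b reached at most 0.218 and Gp9 at most 0.141 in any library, and its part was not tested either.

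Solute carriers work by several mechanisms. Some let a substrate run down its own gradient, some use the sodium or proton gradient to pull a substrate uphill, and some exchange one substrate for another. In macrophages they feed glycolysis and the mitochondria, empty the lysosome of digested cargo, and set the ionic makeup of the cell and of its phagosomes. Lysosomal Slc15a3 and Slc15a4, Slc29a3 and several others are known from work on innate immune sensing, where they lie on the same endolysosomal membranes as nucleic acid sensors.

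Rebuilt read totals lay between 15723437 and 17744844 per library, and the 131 members took between 0.940% and 1.30% of them. All 131 passed the filter for testing, FPKM reaching 1 in 2 or more libraries. The median mean FPKM of the members was 6.54, and 52 members reached 10, 10 reached 50 and 5 reached 100. These 5 were Slc15a3, a lysosomal proton-coupled peptide and histidine carrier, at a mean of 173, Slc6a6, the taurine importer, at 125, Slc25a5, an ADP/ATP exchanger of the inner mitochondrial membrane, at 110, Slc6a8, the creatine importer, at 100.5, and Slc37a2, a glucose-6-phosphate carrier of the ER family, at 100.1. The fewest reads behind a value were the 5 of Slc22a23 in a PBS 3 h library. All 131 identifiers are in GENCODE M21, a mouse annotation on GRCm38, and 126 have the same position there. Since the strand of the libraries is not stated, reads of overlapping genes cannot be told apart. Of the members, 23 share bases with another gene of mean FPKM at least 0.5, and 10 of these lie on the same strand as it. Slc5a3 shares 29152 bases with Mrps6 on the same strand, and Slc28a2 shares 276 bases with the unprocessed pseudogene Gm14086.

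At 3 h of IFN-β in PBS, 28 of 131 members rose and 46 fell. Among all 11421 genes tested 24.6% rose and 25.0% fell. In spermine 27 members rose and 35 fell, against 19.7% and 22.1% of all genes. Both rising counts include Slc4a11, Slc45a3 and Slc15a2, which entered through their 3 h libraries, so the level rule fixed these counts in part. A gene is said to rise or fall where limma's two-sided test on log2(FPKM + 1), adjusted by Benjamini-Hochberg over all genes tested, gave an adjusted p under 0.05, and log2 changes below are on that scale, which understates the change of genes at low FPKM. The median log2 change of the members was -0.10 in PBS and -0.02 in spermine, beside -0.02 and -0.01 for all genes. Across the 2 responses, which share no library, 26 members rose in both, 29 fell in both and none went in opposite directions. This agreement was not counted over all genes, so it is not read as particular to the members. Slc25a44 and Slc9a9 rose in PBS without passing in spermine, 17 fell in PBS without passing in spermine, Slc44a2 rose and 6 fell in spermine without passing in PBS, and 50 passed in neither.

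Spermine against PBS was compared at each time. At 0 h 26 members rose and 42 fell with spermine, where 22.0% of all genes rose and 19.2% fell. At 3 h 25 rose and 30 fell, against 19.9% and 20.6%. Both rising counts include Slc6a9 and Slc22a23, which entered through their spermine libraries, so the level rule fixed these counts in part. The median log2 change of the members was -0.09 at 0 h and -0.02 at 3 h, with 0.01 and -0.00 over all genes. Between the 2 times, which share no library, 14 members rose at both, 23 fell at both, and Slc26a11, Slc26a2 and Slc6a12 fell at 0 h and rose at 3 h. Another 12 rose and 16 fell at 0 h without passing at 3 h, 8 rose and 7 fell at 3 h without passing at 0 h, and 48 passed at neither. These counts across the 2 times were not made over all genes either, and nothing particular to the members is read from them. Leaving out PBS 0 h replicate 2 or spermine 0 h replicate 1 lowered the count rising at 0 h to 15 or 17. The count falling at 0 h became 22 without PBS 0 h replicate 1, 27 without spermine 0 h replicate 1 and 25 without PBS 0 h replicate 2, and the count falling at 3 h became 19 without spermine 3 h replicate 1.

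The balance of rising and falling members depended on how the libraries were scaled. Of the members called, 37.8% rose with IFN-β in PBS, 43.6% with IFN-β in spermine, 38.2% with spermine at 0 h and 45.5% at 3 h on the deposited scale. With FPKM rescaled to a fixed total per library (TPM) the counts were 22 rising and 88 falling, 13 and 66, 10 and 73, and 15 and 44, or 20.0%, 16.5%, 12.05% and 25.4% rising. The same rescaling moved the median of all genes by -0.46, -0.33, -0.34 and -0.20. Under it 14.8% of all genes rose and 55.3% fell with IFN-β in PBS, and 12% and 44% in spermine. With spermine 10.4% rose and 41.5% fell at 0 h, and 11.7% and 32.2% at 3 h. With quantile normalization the member counts were 26 and 62, 21 and 47, 16 and 46, and 21 and 28, or 29.55%, 30.9%, 25.8% and 42.9% rising. Of all genes 20.4% rose and 35.4% fell with IFN-β in PBS under it, and 15.1% and 29.9% in spermine. For spermine the shares were 17.8% and 21% at 0 h, and 17% and 20.1% at 3 h. Changes and counts by class below are relative to the deposited scale, which holds the median gene steady. The class counts stand beside these shares of all genes on the deposited scale. With IFN-β 24.6% rose and 25.0% fell in PBS, and 19.7% and 22.1% in spermine. With spermine 22.0% rose and 19.2% fell at 0 h, and 19.9% and 20.6% at 3 h. No class was tested against these shares, and no class effect is read from the counts.

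The response to IFN-β itself differed between spermine and PBS in 17 members with a higher log2 change in spermine and 8 with a lower one, where 5.82% and 7.75% of all genes did. Higher means a more positive change, not a stronger one: of these 25, 16 had fallen with IFN-β in PBS, all of them with a smaller change in spermine, and 7 had risen in PBS, 6 with a smaller change in spermine and Slc26a2 with a larger one. The difference contains the response in PBS, so this tally is a description. The 8 with a lower change include Slc4a11 and Slc22a23, which entered through the groups where they are high. The median difference over the members was 0.06, and -0.02 over all genes. TPM rescaling gave 24 and 4, beside 8.8% and 4.31% of all genes. Quantile normalization gave 19 and 6, beside 7.88% and 8.02%. The share with a higher change among the members called went from 68% to 85.7% and 76%. These counts leaned on single libraries: the 17 became 4 without PBS 0 h replicate 2, 6 without either PBS 0 h replicate 1 or else spermine 3 h replicate 2, 8 without spermine 0 h replicate 1 or spermine 3 h replicate 1, 10 without spermine 0 h replicate 2 and 9 without PBS 3 h replicate 1. The 8 became 2 without PBS 0 h replicate 2, 3 without spermine 3 h replicate 2 and 4 without PBS 0 h replicate 1, spermine 0 h replicate 1 or spermine 3 h replicate 1. Among members followed in every comparison for their known roles, this difference did not pass for Slc15a3 (-0.48), Slc29a3 (-0.20), Slc25a28 (-0.40), Slc25a37 (0.16), Slc31a1 (-0.43), Slc4a7 (-0.32), Slc19a1 (0.08) and Slc12a2 (0.04). All 4 groups enter this difference, so it shares its libraries with each of the other comparisons.

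**Figure D1:**
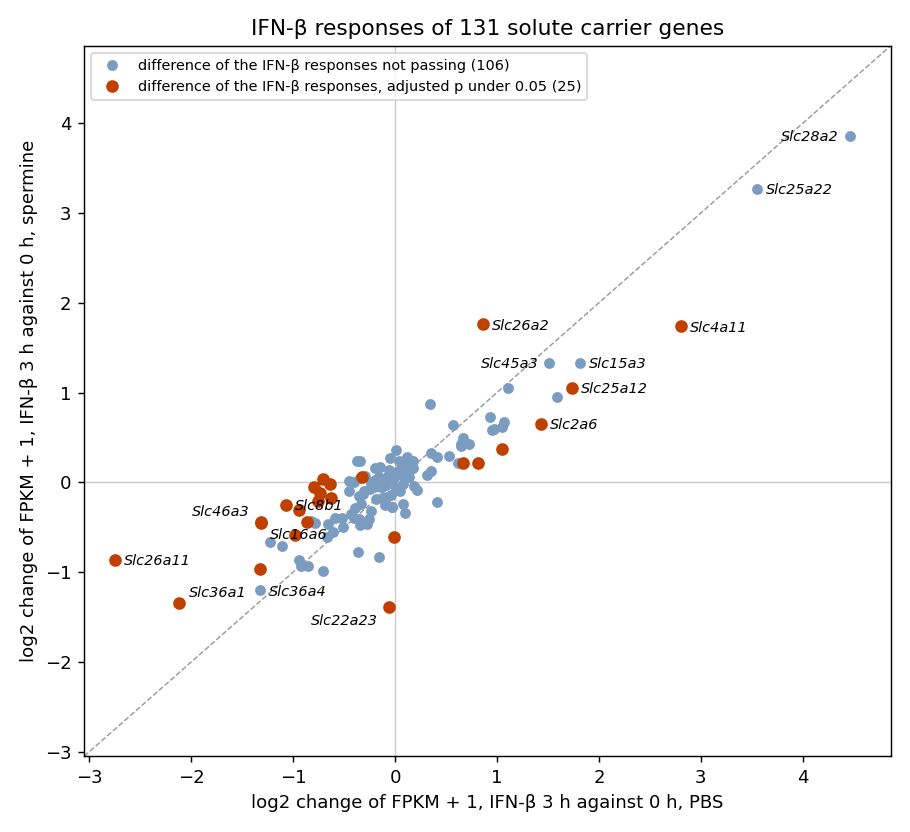
Log2 change of FPKM + 1 from 0 h to 3 h of IFN-β in PBS (x axis) and in spermine (y axis), one point per member, 131 in all; the dashed line marks equal changes and orange-red points are the 25 members whose difference of responses had an adjusted p under 0.05. Slc28a2 and Slc25a22 lie far to the upper right, and Slc26a11 and Slc36a1 far to the left but nearer to 0 on the spermine axis.

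**Figure D2:**
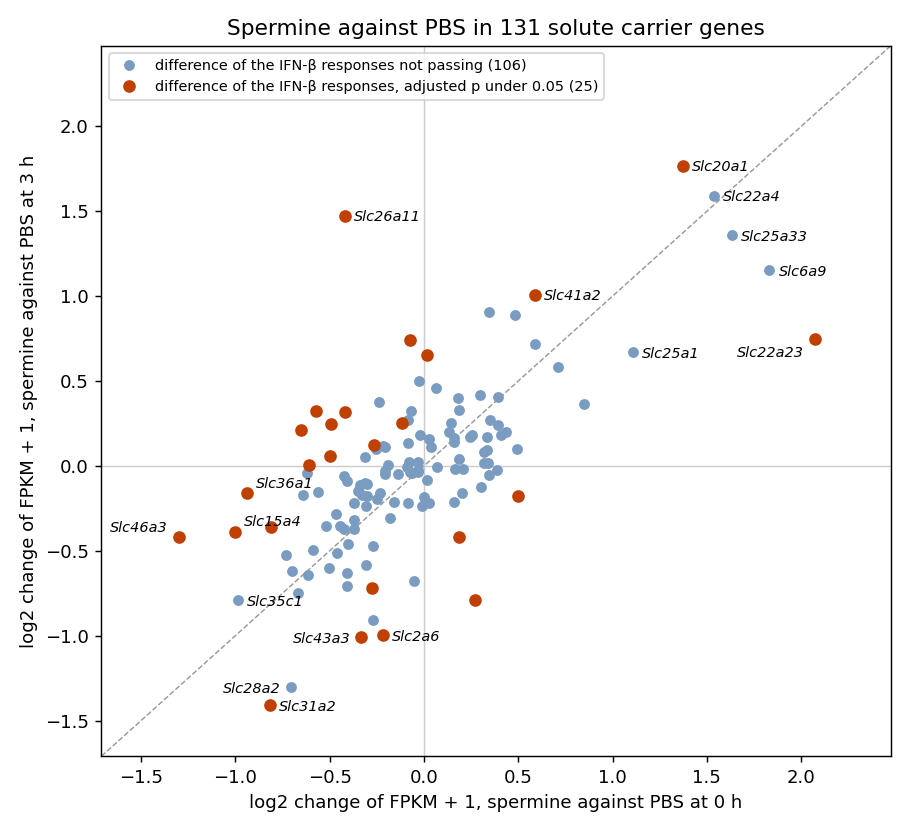
Log2 change of FPKM + 1 of spermine against PBS at 0 h (x axis) and at 3 h (y axis) for the same 131 members; the dashed line marks equal changes and orange-red points are the 25 members whose IFN-β responses differed. Slc20a1, Slc22a4, Slc25a33 and Slc6a9 lie to the upper right, Slc28a2 and Slc31a2 to the lower left, and Slc26a11 at the upper left.

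Nucleoside carriers held the member with the largest rise on the log2(FPKM + 1) scale, Slc28a2. By the ratio of mean FPKM, Slc4a11, which entered through its 3 h libraries, rose more with IFN-β in PBS. Slc28a2 (ENSMUSG00000027219, chr2:122426477-122461137 of GRCm38), a sodium-driven importer of purine nucleosides and uridine, had an FPKM of 3.75 and 3.16 in PBS 0 h, 101 and 92.8 in PBS 3 h, 1.99 and 1.49 in spermine 0 h, and 37.0 and 40.3 in spermine 3 h. Both 3 h groups lay far above both 0 h groups, and spermine libraries lay below PBS libraries at each time. The rise was 28.0-fold in PBS, a log2 change of 4.46 (SE 0.12, adjusted p = 2.34e-07), and 22.2-fold in spermine, a log2 change of 3.86 (SE 0.12, adjusted p = 5.77e-07). Spermine lowered it by 0.70 at 0 h (adjusted p = 0.0033) and changed it by -1.30 at 3 h (adjusted p = 0.000267), while the difference of the IFN-β responses, -0.60, did not pass (adjusted p = 0.0557). Slc43a3, an equilibrative carrier of purine nucleobases, had an FPKM of 1.15 and 1.02 in PBS 0 h, 3.39 and 3.23 in PBS 3 h, 0.757 and 0.567 in spermine 0 h, and 1.09 and 1.19 in spermine 3 h. It was high in PBS 3 h alone, and its mean FPKM of 1.55 leaned on that group, so its changes are given as a description. For spermine at 3 h the log2 change was -1.01 (SE 0.10, adjusted p = 0.000482). The equilibrative nucleoside carrier Slc29a1 lay between 4.67 and 6.44 and passed in no comparison of 2 groups.

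Lysosomal and endosomal carriers numbered 10. With IFN-β in PBS 4 rose and 4 fell, in spermine 3 rose and 2 fell, and with spermine 2 rose and 5 fell at 0 h and 1 rose and 5 fell at 3 h. Slc15a3 (ENSMUSG00000024737, chr19:10839727-10859362) had an FPKM of 59.8 and 67.0 in PBS 0 h, 209 and 242 in PBS 3 h, 109 and 121 in spermine 0 h, and 291 and 289 in spermine 3 h. The 4 groups did not overlap, and both treatments raised it. Its log2 changes were 1.81 (SE 0.10, adjusted p = 7.98e-06) with IFN-β in PBS, 1.33 with IFN-β in spermine, 0.85 with spermine at 0 h and 0.37 with spermine at 3 h. The last of these rested on single libraries, with 0.26 without PBS 3 h replicate 1 (adjusted p = 0.11), 0.36 without spermine 3 h replicate 1 and 0.37 without spermine 3 h replicate 2, none of which passed. Slc15a3 shares bases with Tmem132a on the other strand.

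Slc15a4, its relative that also exports histidine and peptides from the lysosome and takes part in endosomal Toll-like receptor signalling, went the other way, with 11.2 and 12.9 in PBS 0 h, 6.77 and 8.04 in PBS 3 h, 5.13 and 5.92 in spermine 0 h, and 5.35 and 5.46 in spermine 3 h. PBS 0 h stood above the other groups. It fell by 0.64 in PBS with IFN-β (adjusted p = 0.00267), was at -0.02 in spermine (adjusted p = 0.882), and had a log2 change of -1.0 (SE 0.11, adjusted p = 0.000613) with spermine at 0 h. At 3 h the spermine change was -0.39, which did not pass without PBS 3 h replicate 2 (-0.28), spermine 3 h replicate 1 (-0.38) or spermine 3 h replicate 2 (-0.40). Slc29a3, a nucleoside exporter of the lysosome, rose with IFN-β by 0.93 in PBS and 0.73 in spermine, and changed with spermine by -0.27 at 0 h (adjusted p = 0.0504, not passing) and -0.47 at 3 h.

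Slc2a6, a glucose carrier family member of lysosomes, had an FPKM of 11.8 and 13.3 in PBS 0 h, 31.9 and 39.4 in PBS 3 h, 9.85 and 11.5 in spermine 0 h, and 18.7 and 15.9 in spermine 3 h. PBS 3 h stood apart at the top. It rose by 1.43 in PBS and 0.65 in spermine, the latter at 0.54 without spermine 3 h replicate 1 (adjusted p = 0.0598), and spermine changed it by -0.22 at 0 h (adjusted p = 0.24) and -1.0 at 3 h (adjusted p = 0.0015). Slc36a1, a proton-coupled exporter of small amino acids from the lysosome, had 19.9 and 19.0 in PBS 0 h, 3.5 and 3.93 in PBS 3 h, 9.99 and 9.34 in spermine 0 h, and 3.11 and 3.32 in spermine 3 h. The 0 h libraries lay above the 3 h libraries in both treatments, and spermine 0 h lay between them and PBS 0 h. Its log2 change with IFN-β was -2.12 (SE 0.08, adjusted p = 1.31e-06) in PBS and -1.34 in spermine, and with spermine -0.94 at 0 h and -0.16 at 3 h (adjusted p = 0.149). Slc46a3, a lysosomal proton-coupled carrier, was at 16.4 and 15.9 in PBS 0 h, 5.71 and 6.07 in PBS 3 h, 6.17 and 5.79 in spermine 0 h, and 3.92 and 4.39 in spermine 3 h. PBS 0 h was the only high group. Spermine changed it by -1.30 (SE 0.08, adjusted p = 4.99e-05) at 0 h and IFN-β in PBS by -1.32.

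**Figure D3:**
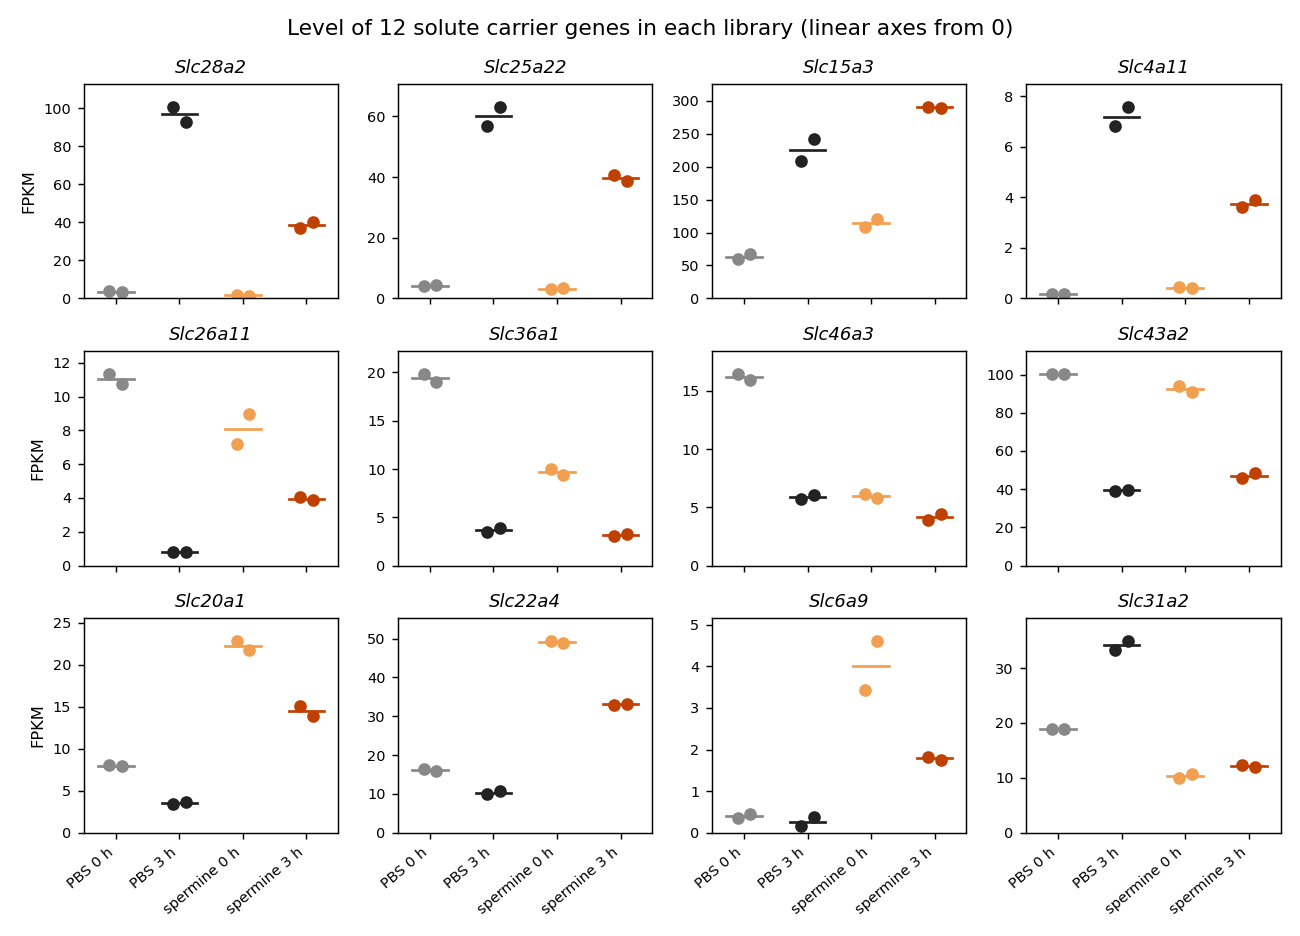
FPKM of 12 members in each library on linear axes that start at 0, with libraries as points and group means as bars. IFN-β groups stand high for Slc28a2, Slc25a22 and Slc4a11, spermine groups for Slc20a1, Slc22a4 and Slc6a9, and PBS 0 h alone for Slc46a3.

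The Slc25 family, 33 members here, moves metabolites across the inner mitochondrial membrane, apart from a few that serve other membranes. With IFN-β in PBS 5 rose and 11 fell, in spermine 4 rose and 9 fell, and with spermine 8 rose and 10 fell at 0 h and 6 rose and 7 fell at 3 h. Slc25a22 (ENSMUSG00000019082, chr7:141429744-141437892), a mitochondrial glutamate carrier, had an FPKM of 4.17 and 4.26 in PBS 0 h, 56.8 and 63.2 in PBS 3 h, 3.04 and 3.39 in spermine 0 h, and 40.6 and 38.7 in spermine 3 h. All 3 h libraries lay far above all 0 h libraries. Its rise was 14.2-fold in PBS, a log2 change of 3.55 (SE 0.08, adjusted p = 1.17e-07), and 12.3-fold in spermine, a log2 change of 3.27. Slc25a12, the aspartate/glutamate exchanger of the malate-aspartate shuttle, had 5.05 and 5.10 in PBS 0 h, 18.6 and 19.9 in PBS 3 h, 7.78 and 7.39 in spermine 0 h, and 16.3 and 17.3 in spermine 3 h. It rose with IFN-β by 1.73 in PBS and 1.06 in spermine, and these responses differed by -0.68 (SE 0.10, adjusted p = 0.00845). Its close relative Slc25a13, of the same exchange, was at 7.76 and 7.97 in PBS 0 h, 4.64 and 4.56 in PBS 3 h, 6.33 and 5.59 in spermine 0 h, and 3.76 and 4.37 in spermine 3 h.

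Promoter windows in RefSeq (GRCm38.p6, 250 bases before to 50 after the start) were matched for 98 of the 131 members. The letters GAAA, any 2 bases and GAAA again, on either strand, stand for the interferon-stimulated response element to which interferon-activated STAT and IRF factors bind. They were found in 3 of the 98, or 3.06%, in Slc25a22, Slc25a15 and Slc37a1, beside 4.19% of the tested genes with a window and 3.99% of all genes with one. Of all members that rose with IFN-β in PBS, 2 of 21 with a window held the letters, or 9.52%. Of those that fell, 1 of 36 did, or 2.78%, and this was Slc25a15. Slc25a22 is shown because it is the only one of the 3 among the 8 members named as rising most with IFN-β in PBS, 6 of which had a window. The match, in capitals, starts 79 bases before the annotated start in the window at chr7:141435326-141435625, minus strand. This window lies inside the gene, whose upstream end is at 141437892.
Slc25a22: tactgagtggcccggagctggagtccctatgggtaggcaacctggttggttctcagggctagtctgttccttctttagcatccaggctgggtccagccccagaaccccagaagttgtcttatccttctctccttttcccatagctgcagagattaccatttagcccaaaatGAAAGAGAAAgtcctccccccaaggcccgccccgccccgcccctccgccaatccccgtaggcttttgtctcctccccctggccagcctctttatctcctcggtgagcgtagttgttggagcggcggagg
FPKM is counted per gene, so it does not show which start was used, and a match is a description of letters.

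Among the other Slc25 members, Slc25a28, a mitochondrial iron importer, rose with IFN-β by 1.07 in PBS. Its change in spermine, 0.68 (adjusted p = 0.0291), did not pass without spermine 0 h replicate 1 (0.51), spermine 3 h replicate 1 (0.61) or spermine 3 h replicate 2 (0.75), and spermine changed it by 0.49 at 0 h (adjusted p = 0.0814) and 0.10 at 3 h (adjusted p = 0.713). Slc25a37, the related iron importer, passed nowhere, with -0.20 and -0.05 for IFN-β and -0.21 and -0.05 for spermine. Slc25a51, the mitochondrial NAD carrier, had 12.4 and 12.4 in PBS 0 h, 6.79 and 6.03 in PBS 3 h, 15.4 and 14.3 in spermine 0 h, and 7.28 and 7.36 in spermine 3 h. It fell by 0.86 and 0.93 with IFN-β in PBS and spermine. Slc25a36, a pyrimidine nucleotide carrier, fell by 0.92 and 0.93.

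Spermine raised the pyrimidine nucleotide carrier Slc25a33, with an FPKM of 1.8 and 1.95 in PBS 0 h, 0.949 and 0.59 in PBS 3 h, 7.84 and 7.98 in spermine 0 h, and 3.59 and 3.43 in spermine 3 h. Spermine libraries exceeded PBS libraries at both times, with log2 changes of 1.63 (SE 0.11, adjusted p = 8.1e-05) at 0 h and 1.36 at 3 h. IFN-β lowered it by 0.71 in PBS and 0.98 in spermine. Slc25a1, which exports citrate for fatty acid and sterol synthesis, had 28.2 and 33.5 in PBS 0 h, 31.3 and 34.9 in PBS 3 h, 59.7 and 76.3 in spermine 0 h, and 55.1 and 51.4 in spermine 3 h. IFN-β left no change that passed (0.10 in PBS, adjusted p = 0.575), and spermine raised it by 1.11 (SE 0.14, adjusted p = 0.000969) at 0 h and by 0.67 at 3 h, the latter 0.62 without spermine 3 h replicate 1 (adjusted p = 0.0566). The abundant ADP/ATP exchanger Slc25a5 and the mitochondrial phosphate carrier Slc25a3 rose with spermine at 0 h by 0.35 and 0.39 and at 3 h by 0.27 and 0.41, of which the last passed under both other scalings, and Slc25a5 at 3 h did not pass without spermine 3 h replicate 2 (0.26). Slc25a16, a carrier linked to coenzyme A, fell with spermine by 0.73 at 0 h, and Slc25a43 by 0.75 at 3 h. Other members named for differing IFN-β responses were Slc25a44, a carrier of branched-chain amino acids (-0.44), and Slc25a46, an outer membrane protein of mitochondrial dynamics (-0.60). Both were lost with TPM rescaling (-0.32 and -0.51) and without any of several libraries, at -0.35 for Slc25a44 without PBS 3 h replicate 2 and -0.46 for Slc25a46 without spermine 0 h replicate 1.

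The carriers of bicarbonate, chloride, sulfate and phosphate, 8 members, split in every comparison: 3 rose and 3 fell with IFN-β in PBS, 3 rose and 2 fell in spermine, 1 rose and 4 fell with spermine at 0 h, and 4 rose and 2 fell at 3 h. Slc4a11, among those that rose with IFN-β, entered through its 3 h libraries, so the level rule fixed those rising counts in part. Slc26a11 (ENSMUSG00000039908, chr11:119355557-119381079), a sodium-independent sulfate carrier, had the deepest fall among the members, with 11.3 and 10.8 in PBS 0 h, 0.794 and 0.789 in PBS 3 h, 7.17 and 8.95 in spermine 0 h, and 4.03 and 3.90 in spermine 3 h. PBS 3 h lay below every other library. The fall with IFN-β was 14.0-fold in PBS, a log2 change of -2.75 (SE 0.10, adjusted p = 1.31e-06), and 2.03-fold in spermine, a log2 change of -0.86. The difference of the 2 responses was 1.89 (SE 0.15, adjusted p = 0.00171). Spermine libraries at 3 h stood 5.02-fold above PBS libraries, a log2 change of 1.47, whereas at 0 h the change was -0.42, which did not pass without PBS 0 h replicate 1 (-0.38), PBS 0 h replicate 2 (-0.45) or spermine 0 h replicate 1 (-0.28).

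Slc26a2, the sulfate carrier that supplies sulfation of matrix sugars, rose where Slc26a11 fell, with an FPKM of 5.82 and 5.96 in PBS 0 h, 12.2 and 11 in PBS 3 h, 3.71 and 3.57 in spermine 0 h, and 14.7 and 14.8 in spermine 3 h. Both 3 h groups exceeded both 0 h groups, and the gap was wider in spermine, with log2 changes of 0.87 in PBS and 1.76 in spermine and a difference of 0.90 (SE 0.10, adjusted p = 0.00414). Spermine changed it by -0.57 at 0 h and by 0.32 at 3 h, the latter without a pass when PBS 3 h replicate 2 (0.25), spermine 3 h replicate 1 (0.33) or spermine 3 h replicate 2 (0.32) was left out. Slc4a11, an ion carrier of the bicarbonate family that conducts protons and hydroxide, was nearly silent without IFN-β, with 0.183 and 0.169 in PBS 0 h, 6.81 and 7.59 in PBS 3 h, 0.435 and 0.407 in spermine 0 h, and 3.60 and 3.89 in spermine 3 h, or 17 to 37 reads in each 0 h library and 252 to 613 in each 3 h library. It passed the filter on level through its 3 h libraries. As a description, its log2 change was 2.80 in PBS and 1.74 in spermine, with a difference of -1.06 (SE 0.13, adjusted p = 0.00479), and these values are larger with smaller pseudocounts, 4.72 in PBS at a pseudocount of 0.1. Spermine changed it by -0.79 at 3 h and by 0.27 at 0 h (adjusted p = 0.0526).

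Slc20a1 (ENSMUSG00000027397, chr2:129198764-129211616), a sodium-driven phosphate importer, rose with spermine and fell with IFN-β, with an FPKM of 8.02 and 7.93 in PBS 0 h, 3.44 and 3.64 in PBS 3 h, 22.8 and 21.7 in spermine 0 h, and 15.0 and 13.9 in spermine 3 h. The 4 groups did not overlap. Spermine libraries were 2.79-fold higher at 0 h, a log2 change of 1.37 (SE 0.07, adjusted p = 3.02e-05), and 4.09-fold higher at 3 h, a log2 change of 1.77 (SE 0.07, adjusted p = 1.17e-05). IFN-β changed it by -0.98 in PBS and -0.59 in spermine. The related importer Slc20a2 was at 2.37 and 2.51 in PBS 0 h, 4.09 and 4.66 in PBS 3 h, 1.47 and 1.72 in spermine 0 h, and 2.39 and 2.55 in spermine 3 h, and it went in the opposite direction in all 4 comparisons, 0.64 and 0.42 with IFN-β and -0.41 and -0.63 with spermine, each with an adjusted p under 0.05. The IFN-β change of Slc20a2 in spermine did not pass without spermine 0 h replicate 1 (0.35) or spermine 3 h replicate 2 (0.39), nor did its spermine change at 0 h without PBS 0 h replicate 1 (-0.44), PBS 0 h replicate 2 (-0.38) or spermine 0 h replicate 1 (-0.34). Slc4a7, a sodium-bicarbonate importer, passed nowhere, at 0.08 and -0.24 with IFN-β and 0.34 and 0.02 with spermine.

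Windows of members that rose with spermine were searched for TGACNNNGC, the core of the antioxidant response element bound by NRF2, on both strands, and for the E-box CACGTG. TGACNNNGC was found in 22.4% of the 98 members with a window, beside 17.6% of tested genes and 14.0% of all genes. Among the 8 members named as rising most with spermine at 3 h, 7 had a window and 5 held these letters, namely Slc20a1, Slc25a33, Slc6a9, Slc41a2 and Slc35e4. Over all 25 members that rose at 3 h, it was 7 of 19, or 36.8%, and over the 26 that rose at 0 h 7 of 21, or 33.3%. Members that fell held it in 7 of 32, or 21.9%, at 0 h and 4 of 22, or 18.2%, at 3 h, and in 3 of the 8 named as falling most at 0 h, or 37.5%. The letters CACGTG were in 19.4% of members, 12.5% of tested genes and 8.09% of all genes, and in 19.0% and 21.1% of the members that rose at 0 h and 3 h. Among the 8 named as rising most at 0 h, 6 had a window, of which 4 held CACGTG and 3 held TGACNNNGC. At 3 h CACGTG was in 3 of 7. Of those named as falling most, 2 of 8 with a window held CACGTG at 0 h and 2 of 6 at 3 h. The windows of Slc20a1, Slc25a33 and Slc41a2, which rose with spermine at both times and hold TGACNNNGC in a single window each, are printed as examples. Slc6a9 holds TGACNNNGC in 2 windows and is counted above among the named risers at both times. It passed the level limits only through its spermine libraries, so its place in these counts is a description and supports nothing. In the windows printed, TGACNNNGC or its reverse complement is in capitals; that of Slc20a1 belongs to one of its starts, at chr2:129206846-129207145 on the plus strand, that of Slc25a33 is at chr4:149774218-149774517 on the minus strand, and that of Slc41a2 is at chr10:83337768-83338067 on the minus strand.
Slc20a1: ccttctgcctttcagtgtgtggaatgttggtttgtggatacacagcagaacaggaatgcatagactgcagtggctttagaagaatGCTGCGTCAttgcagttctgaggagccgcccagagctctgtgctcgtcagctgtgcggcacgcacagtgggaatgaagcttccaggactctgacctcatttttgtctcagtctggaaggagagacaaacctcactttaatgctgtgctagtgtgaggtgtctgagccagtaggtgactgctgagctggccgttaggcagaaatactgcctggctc
Slc25a33: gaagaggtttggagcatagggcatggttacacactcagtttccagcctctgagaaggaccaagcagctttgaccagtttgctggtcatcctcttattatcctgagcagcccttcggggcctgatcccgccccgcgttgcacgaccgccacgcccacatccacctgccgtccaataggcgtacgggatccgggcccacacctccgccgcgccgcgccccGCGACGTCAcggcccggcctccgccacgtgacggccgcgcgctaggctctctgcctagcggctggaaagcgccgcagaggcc
Slc41a2: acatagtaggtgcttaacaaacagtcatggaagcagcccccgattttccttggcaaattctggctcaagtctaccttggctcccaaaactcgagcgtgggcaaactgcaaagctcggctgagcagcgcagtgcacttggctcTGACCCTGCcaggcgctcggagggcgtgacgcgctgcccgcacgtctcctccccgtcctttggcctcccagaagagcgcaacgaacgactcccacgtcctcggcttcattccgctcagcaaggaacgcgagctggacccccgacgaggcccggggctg
The matches start 165, 32 and 108 bases before the start in Slc20a1, Slc25a33 and Slc41a2. No binding was measured here, and the start in use is not known from counts per gene.

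Organic ion carriers of the Slc22 family, 5 members, had 3 rising and none falling with spermine at each time, where 22.0% of all genes rose at 0 h and 19.9% at 3 h. With IFN-β 1 fell in PBS and 2 fell in spermine. Of the 3 that rose, Slc22a23 and Slc22a21 reached the mean FPKM of 1 through their spermine libraries, so the level rule fixed this count in part and nothing is read from it. Under TPM rescaling 3 rose and 2 fell at 0 h, and 2 rose at 3 h. Of all genes 10.4% rose and 41.5% fell at 0 h on that scale, and 11.7% rose at 3 h. Slc22a4 (ENSMUSG00000020334, chr11:53983123-54028090), the ergothioneine importer, had an FPKM of 16.5 and 16.0 in PBS 0 h, 9.93 and 10.7 in PBS 3 h, 49.4 and 49.0 in spermine 0 h, and 32.9 and 33.3 in spermine 3 h. Every spermine library exceeded every PBS library, 3.02-fold by the means at 0 h, a log2 change of 1.54 (SE 0.06, adjusted p = 1.35e-05), and 3.21-fold at 3 h, a log2 change of 1.59 (SE 0.06, adjusted p = 1.14e-05). IFN-β lowered it by 0.61 in PBS and 0.56 in spermine. Slc22a23, a family member whose substrate is not established, was at 0.171 and 0.163 in PBS 0 h, 0.191 and 0.0485 in PBS 3 h, 3.61 and 4.24 in spermine 0 h, and 0.648 and 1.13 in spermine 3 h, with 5 to 25 reads in PBS libraries and 382 and 492 in spermine 0 h. It passed the level limits only through its spermine libraries. As a description, its log2 change with spermine was 2.07 at 0 h and 0.75 at 3 h, and it fell by 1.39 with IFN-β in spermine. At a pseudocount of 0.1 the 0 h change was 3.91. Slc22a21, a carnitine carrier, had 1.16 and 0.572 in PBS 0 h, 0.373 and 0.526 in PBS 3 h, 2.02 and 2.02 in spermine 0 h, and 1.18 and 1.17 in spermine 3 h. Its change at 0 h, 0.71, was 0.71 without spermine 0 h replicate 1 and 0.48 without PBS 0 h replicate 2, neither of which passed.

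The taurine, creatine, betaine, glycine, amino acid and peptide carriers outside the excluded families numbered 7. With IFN-β 1 rose and 3 fell in PBS and 1 rose and 4 fell in spermine, and with spermine 3 rose and 1 fell at 0 h and 4 rose and none fell at 3 h. The member that rose with IFN-β was Slc15a2, which entered through its 3 h libraries. Slc6a9, among those that rose with spermine, entered through its spermine libraries. The level rule thus fixed the rising counts in part, and nothing is read from them. Slc43a2, a facilitative carrier of large neutral amino acids, was among the most abundant members, with an FPKM of 100.3 and 100.4 in PBS 0 h, 38.9 and 39.8 in PBS 3 h, 94.1 and 91.0 in spermine 0 h, and 45.6 and 48.5 in spermine 3 h. The 3 h libraries held less than any 0 h library, with log2 changes of -1.33 (SE 0.06, adjusted p = 3.45e-06) in PBS and -0.96 in spermine. Slc36a4, a high-affinity amino acid carrier, had 12.3 and 11.6 in PBS 0 h, 4.22 and 4.10 in PBS 3 h, 20.5 and 16.7 in spermine 0 h, and 7.27 and 7.68 in spermine 3 h. It fell with IFN-β by 1.33 in PBS and 1.2 in spermine, and spermine libraries lay above PBS libraries at each time (0.59 and 0.72).

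Slc6a9, the sodium-driven glycine importer, was at 0.348 and 0.454 in PBS 0 h, 0.153 and 0.373 in PBS 3 h, 3.43 and 4.61 in spermine 0 h, and 1.83 and 1.76 in spermine 3 h. PBS libraries held 11 to 47 reads and spermine libraries 132 to 431. It too passed the level limits only through its spermine libraries, and as a description its log2 change with spermine was 1.83 at 0 h and 1.15 at 3 h. Slc6a12, which carries betaine and GABA, had 5.26 and 5.41 in PBS 0 h, 2.65 and 2.66 in PBS 3 h, 3.60 and 3.42 in spermine 0 h, and 3.16 and 3.54 in spermine 3 h. PBS 0 h was highest and PBS 3 h lowest, so that spermine changed it by -0.49 at 0 h and 0.25 at 3 h, the latter lost on leaving out any single library, at 0.19 without spermine 3 h replicate 2. Slc6a6, the taurine importer, was at 123 and 126 in PBS 0 h, 113 and 119 in PBS 3 h, 143 and 140.1 in spermine 0 h, and 117 and 122 in spermine 3 h. It fell with IFN-β in spermine by 0.25 (adjusted p = 0.0162) and rose with spermine at 0 h by 0.19 (adjusted p = 0.0463). The fall did not pass without spermine 0 h replicate 1 (-0.23), spermine 3 h replicate 1 (-0.22) or spermine 3 h replicate 2 (-0.28). The change at 0 h was -0.16 with TPM rescaling and -0.18 with quantile normalization, and it did not pass without any library of the 0 h groups or of spermine 3 h, at 0.17 to 0.20. Slc6a8 lay between 85.8 and 115.

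Copper and magnesium carriers numbered 5, of which 2 rose and 1 fell with IFN-β in either treatment and 1 rose and 1 fell with spermine at either time. The copper importer Slc31a1 had an FPKM of 21.3 and 19.2 in PBS 0 h, 46.2 and 39.5 in PBS 3 h, 27.2 and 23.2 in spermine 0 h, and 38.6 and 39.6 in spermine 3 h. Both 3 h groups lay above the 0 h groups, with log2 changes of 1.05 in PBS and 0.62 in spermine, and 0.30 and -0.13 for spermine at 0 h and 3 h, neither passing. Slc31a2, which controls copper entry at endosomes, had 19.0 and 19.0 in PBS 0 h, 33.3 and 34.9 in PBS 3 h, 10.0 and 10.7 in spermine 0 h, and 12.4 and 12.1 in spermine 3 h. Spermine libraries lay below PBS libraries at both times, with log2 changes of -0.82 (SE 0.07, adjusted p = 0.000162) at 0 h and -1.41 (SE 0.07, adjusted p = 1.97e-05) at 3 h, and the rise with IFN-β was 0.81 in PBS and 0.22 in spermine. The last of these was -0.09 with TPM rescaling and did not pass without any of 5 libraries, with 0.17 without spermine 0 h replicate 1, 0.20 without spermine 3 h replicate 1, 0.23 without spermine 3 h replicate 2, and 0.22 without PBS 0 h replicate 1 or PBS 0 h replicate 2. Slc41a2, a magnesium carrier, was at 10.5 and 10.7 in PBS 0 h, 5.69 and 5.09 in PBS 3 h, 17.1 and 15.8 in spermine 0 h, and 11.6 and 12.1 in spermine 3 h. It fell with IFN-β by 0.86 in PBS and 0.44 in spermine and rose with spermine by 0.59 at 0 h and 1.01 at 3 h.

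Exchangers of sodium, potassium, calcium and protons and the cation-chloride cotransporters numbered 12, of which 4 rose and 3 fell with IFN-β in PBS, 4 rose and 2 fell in spermine, 1 rose and 2 fell with spermine at 0 h, and 1 rose and 3 fell at 3 h. The cation-chloride relative Slc12a9 had an FPKM of 7.82 and 9.34 in PBS 0 h, 24.0 and 32.0 in PBS 3 h, 5.87 and 8.16 in spermine 0 h, and 14.6 and 14.1 in spermine 3 h. PBS 3 h was highest, and the rise with IFN-β was 1.59 (SE 0.18, adjusted p = 0.00032) in PBS. Spermine changed it by -0.91 at 3 h. The potassium-chloride cotransporter Slc12a7 was at 4.20 and 4.66 in PBS 0 h, 10.4 and 11 in PBS 3 h, 3.92 and 3.82 in spermine 0 h, and 8.85 and 9.35 in spermine 3 h, with a log2 change of 1.05 with IFN-β in spermine (adjusted p = 6e-05). Slc8b1, the mitochondrial sodium/calcium exchanger, had 44.8 and 48.0 in PBS 0 h, 19.6 and 23.7 in PBS 3 h, 42.1 and 45.9 in spermine 0 h, and 38.0 and 35.7 in spermine 3 h. Only PBS 3 h was low, and spermine libraries at 3 h exceeded PBS libraries by 0.74 (SE 0.10, adjusted p = 0.0016). Slc12a2, the sodium-potassium-chloride cotransporter, passed nowhere, at 0.06 and 0.10 with IFN-β and -0.07 and -0.04 with spermine.

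Sugar carriers numbered 10, of which 3 rose and 5 fell with IFN-β in PBS, 3 rose and 2 fell in spermine, 1 rose and 6 fell with spermine at 0 h, and 2 rose and 3 fell at 3 h. The level rule fixed the rising counts with IFN-β in part, since they include Slc45a3. Slc45a3, a proton-coupled sucrose and hexose carrier, was at 0.257 and 0.529 in PBS 0 h, 2.86 and 3.06 in PBS 3 h, 0.525 and 0.262 in spermine 0 h, and 2.83 and 2.18 in spermine 3 h. It passed the level limits only through its 3 h libraries, and as a description its log2 changes with IFN-β were 1.51 in PBS and 1.33 in spermine. Slc5a3, the sodium-driven inositol importer, had 2.05 and 1.93 in PBS 0 h, 0.446 and 0.329 in PBS 3 h, 3.47 and 2.91 in spermine 0 h, and 1.45 and 1.68 in spermine 3 h. It fell with IFN-β by 1.11 in PBS and rose with spermine by 0.89 at 3 h, though its reads may come in part from Mrps6. Slc37a4, the ER glucose-6-phosphate importer of glucose production, had 6.10 and 6.36 in PBS 0 h, 3.71 and 3.64 in PBS 3 h, 3.21 and 3.04 in spermine 0 h, and 2.60 and 2.69 in spermine 3 h. PBS 0 h was the only high group, and spermine changed it by -0.81 (SE 0.07, adjusted p = 0.00026) at 0 h. Slc37a2 was the most abundant sugar phosphate carrier, at 132 and 129 in PBS 0 h, 78.1 and 72.8 in PBS 3 h, 117 and 108 in spermine 0 h, and 79.0 and 84.5 in spermine 3 h, and fell with IFN-β by 0.79 in PBS and 0.45 in spermine.

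Golgi and ER carriers, most of the Slc35 family that brings nucleotide sugars to glycosylation enzymes, numbered 20. With IFN-β 1 rose and 10 fell in PBS and 1 rose and 7 fell in spermine, and with spermine 3 rose and 6 fell at 0 h and 2 rose and 5 fell at 3 h. Their median log2 change was -0.26 with IFN-β in PBS and -0.20 in spermine, beside -0.02 and -0.01 for all genes. With TPM rescaling 16 fell with IFN-β in either treatment, and with spermine none rose and 10 fell at 0 h and 1 rose and 8 fell at 3 h. On that scale 55.3% and 44% of all genes fell with IFN-β in PBS and spermine. With spermine 41.5% fell at 0 h and 32.2% at 3 h. The class was not tested against these shares. Slc35c1, the GDP-fucose carrier of the Golgi, had 14.0 and 12.3 in PBS 0 h, 7.74 and 9.05 in PBS 3 h, 6.31 and 5.98 in spermine 0 h, and 4.43 and 4.41 in spermine 3 h. Spermine lowered it by 0.99 at 0 h (adjusted p = 0.000372) and 0.79 at 3 h. Slc35e4, whose substrate is not established, had 20.7 and 24.1 in PBS 0 h, 8.02 and 10.0 in PBS 3 h, 24.9 and 32.8 in spermine 0 h, and 19.4 and 16.2 in spermine 3 h. PBS 3 h was lowest, with a fall of 1.22 with IFN-β in PBS and a spermine change of 0.91 at 3 h. Slc35f5, an orphan, was the member of this class that rose with IFN-β in both treatments (0.65 and 0.41).

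**Figure D4:**
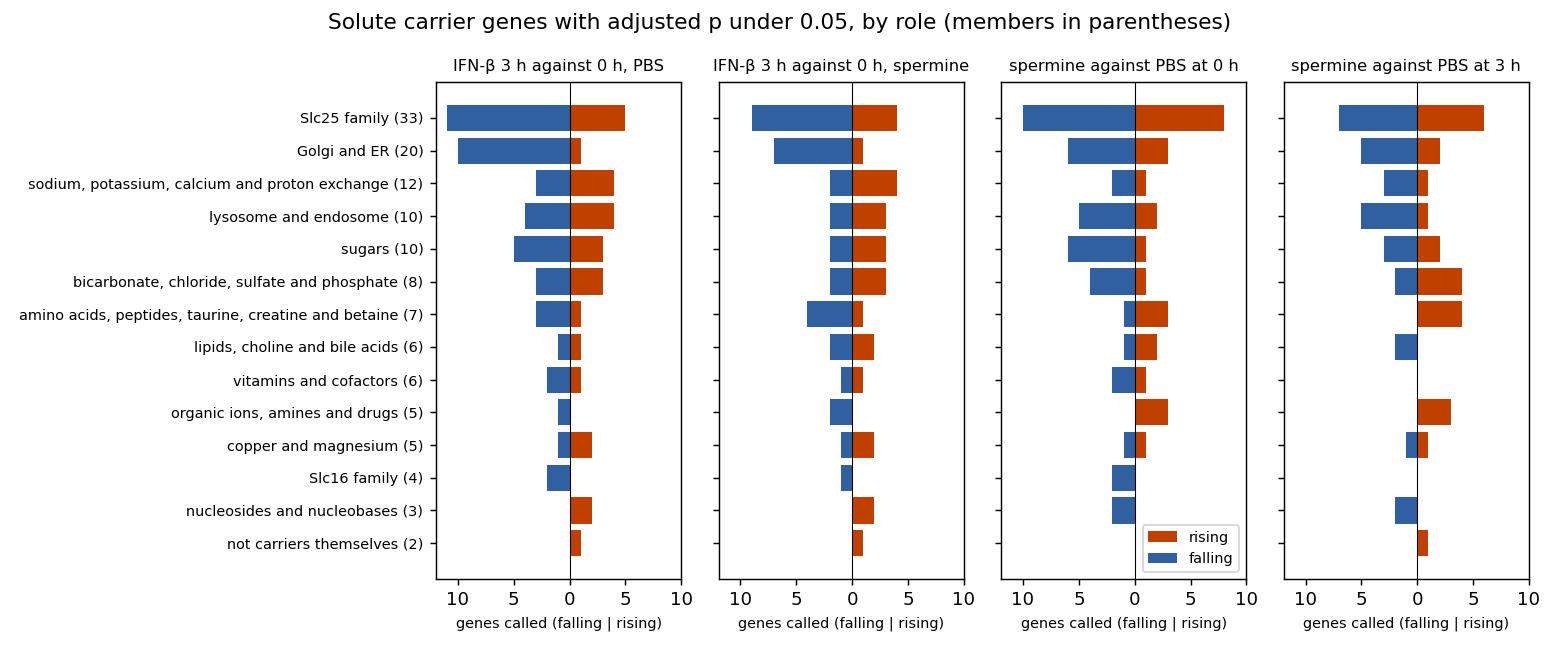
Number of members with an adjusted p under 0.05 in each class, rising to the right and falling to the left of 0, in the 4 comparisons of 2 groups; class sizes are in parentheses. Golgi and ER carriers hold 10 falling and 1 rising with IFN-β in PBS, and sugar carriers hold 6 falling and 1 rising with spermine at 0 h. Among all genes 25.0% fell and 24.6% rose with IFN-β in PBS, and 19.2% fell and 22.0% rose with spermine at 0 h. Members that entered through the groups where they are high are counted too.

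The remaining classes were small. Of the 4 Slc16 members 2 fell with IFN-β in PBS and 2 fell with spermine at 0 h. They were Slc16a6, a carrier of ketone bodies, with an FPKM of 3.92 and 3.62 in PBS 0 h, 0.792 and 1.04 in PBS 3 h, 2.11 and 1.95 in spermine 0 h, and 1.24 and 1.19 in spermine 3 h, and Slc16a10, a carrier of aromatic amino acids, with 20.8 and 21.8 in PBS 0 h, 12.4 and 12.4 in PBS 3 h, 14.0 and 13.2 in spermine 0 h, and 11.7 and 13.2 in spermine 3 h. For both, PBS 0 h stood above the other groups, with log2 changes of -1.32 and -0.74 for IFN-β in PBS. Among 6 vitamin carriers the ascorbate importer Slc23a2 rose with IFN-β, from 37.9 and 36.6 in PBS 0 h to 77.2 and 68.9 in PBS 3 h, a log2 change of 0.95 (SE 0.08, adjusted p = 8.57e-05). The folate carrier Slc19a1 passed nowhere, at -0.00 and 0.07 with IFN-β and -0.24 and -0.16 with spermine. The 6 carriers of lipids, choline and bile acids stayed between -0.45 and 0.43 in all 4 comparisons of 2 groups. Slc9a3r1 and Slc4a1ap, which bear the name as binding partners of carriers, made up the rest. In all, 99 members passed in at least 1 of the 4 comparisons of 2 groups and 32 in none. The same count was not made over all genes, of which 40.5% to 49.6% passed in each single comparison, so nothing is read from it.

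Scaling and the added constant moved some of the values above. With TPM rescaling the IFN-β rise in spermine no longer passed for Slc2a6 (0.35), Slc31a1 (0.30), Slc25a28 (0.36), Slc20a2 (0.26) and Slc35f5 (0.09). The same held for spermine against PBS in Slc36a4 at 0 h (0.28), Slc25a3 at 0 h (0.05), Slc25a5 at both times (adjusted p = 0.958 and 0.38), and Slc15a3 (0.16), Slc26a2 (0.14) and Slc6a12 (0.11) at 3 h. Quantile normalization ended the call of Slc25a28 with IFN-β in spermine (0.38), of Slc15a3 and Slc26a2 with spermine at 3 h (0.12 and 0.23), of Slc25a5 at both times (0.03 and 0.08) and of Slc25a3 at 0 h (0.04). Members at low FPKM changed more with a pseudocount of 0.1 in place of 1: with spermine at 0 h Slc6a9 changed by 3.03 and Slc22a21 by 1.2, with IFN-β in PBS Slc45a3 by 2.69 and Slc5a3 by -2.11, and with spermine at 3 h Slc25a33 by 2.09 and Slc22a23 by 2.21.

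Counts for transporters outside the set follow, to be read beside the shares of all genes. Those were 24.6% rising and 25.0% falling with IFN-β in PBS and 19.7% and 22.1% in spermine. With spermine they were 22.0% and 19.2% at 0 h and 19.9% and 20.6% at 3 h. The lists were not tested against these shares, and nothing is read from their counts. Of 17 amino acid carriers of the excluded families 6 rose and 8 fell with IFN-β in PBS, 4 and 6 in spermine, 6 and 6 with spermine at 0 h, and 5 and 2 at 3 h. Of 21 iron and zinc carriers 7 rose and 9 fell with IFN-β in PBS, 7 and 7 in spermine, 8 and 3 with spermine at 0 h, and 9 and 5 at 3 h. The 3 glucose and lactate carriers left out, Slc2a1, Slc16a1 and Slc16a3, all rose with spermine at each time, and so did Bsg and Emb, the partner subunits of lactate carriers. Of 22 ABC transporters, which pump with ATP, 3 rose and 8 fell with IFN-β in PBS, 4 and 5 in spermine, 3 and 11 with spermine at 0 h, and 5 and 7 at 3 h. The 20 P-type ATPases, which pump ions and lipids, had 10 rising and 4 falling with IFN-β in PBS and 8 and 2 in spermine, with 8 and 4 for spermine at 0 h and 3 and 5 at 3 h. In the 25 carriers not named Slc these counts were 4 and 7, 3 and 9, 2 and 5, and 4 and 5. In bulk RNA, fewer cells of a type and less RNA per cell cannot be told apart, and this holds for every change above.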

How the data were processed

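RNA of mouse bone marrow derived macrophages was sequenced in 8 libraries, 2 in each of 4 groups taken from the sample titles. The authors deposited one table of FPKM per gene, with gene lengths and positions. Tools named without role or order, per the submitters' processing notes, are CASAVA 1.8, fastp, HISAT2 2.0.5, featureCounts 1.5.0-p3 and DESeq2 1.20.0, with GRCm38 and mm10 as builds. The sources used here do not give the counting of reads that match several genes. FPKM times length was a whole multiple of 1 step per library (tolerance 0.001 of a read) for 100% of values, so whole reads were rebuilt, 15723437 to 17744844 per library. The step matches a median-of-ratios size factor.

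Genes reaching an FPKM of 1 in 2 or more libraries, 11421 in all, were fitted with limma 3.58.1 (R 4.3.3) on log2(FPKM + 1) as 4 group means, with 4 residual and 2.83 prior degrees of freedom and an intensity trend. The tests are two-sided, adjusted by Benjamini-Hochberg over all genes of each of 5 comparisons, with no correction across comparisons. The script was tested on simulated data. Alternatives were a pseudocount of 0.1, no filter, TPM rescaling, quantile normalization, no trend, voom on rebuilt reads, only the groups compared, the replicate number as a block, and leaving out each library. Python 3.11.15 with pandas 2.3.3, numpy 2.4.6 and matplotlib 3.10.9 made the tables and figures.

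Up to 8 rising and 8 falling members of the largest change among those passing without overlap of groups were named per comparison (for the difference of responses without the overlap condition), with 12 genes followed in every comparison where they are members: Slc15a3, Slc15a4, Slc29a3, Slc2a6, Slc25a28, Slc25a37, Slc18b1, Slc4a7, Slc19a1, Slc31a1, Slc20a1 and Slc12a2. Of these Slc18b1 is no member. A result that the rule names is not reported here. Values beyond this rule, such as those of Slc20a2, Slc25a13, Slc25a3, Slc25a5, Slc35f5, Slc37a2, Slc6a6, Slc23a2 and Slc16a10, were chosen after their values were seen. Members, classes and lists were chosen with earlier results of these data known. Marker lists for macrophages, T, B and NK cells, neutrophils, erythroid cells, platelets, fibroblasts and dendritic cells were read as summed FPKM.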

Additional observations from a re-analysis of the deposited data

Results flagged for a closer look

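The IFN-β responses of the following members differed between spermine and PBS by the test of the difference itself in limma, spermine minus PBS on the log2(FPKM + 1) scale, at an adjusted p under 0.05 over all genes tested. A positive value means a higher log2 change with IFN-β in spermine. Of those with a higher change, Slc26a11 differed by 1.89 (SE 0.15, adjusted p = 0.00171), Slc26a2 by 0.90 (SE 0.10, adjusted p = 0.00414), Slc46a3 by 0.88 (SE 0.11, adjusted p = 0.00507) and Slc36a1 by 0.78 (SE 0.11, adjusted p = 0.00789), and these 4 passed under every alternative run. Slc16a6 differed by 0.87 (SE 0.14, adjusted p = 0.0126), but not without PBS 0 h replicate 1 (0.82), PBS 0 h replicate 2 (0.91) or spermine 3 h replicate 1 (0.85). Slc8b1 differed by 0.82 (SE 0.14, adjusted p = 0.0151), but not without PBS 0 h replicate 2 (0.77), spermine 0 h replicate 1 (0.76), spermine 3 h replicate 1 (0.77) or spermine 3 h replicate 2 (0.86). Slc6a12 differed by 0.74, at 0.72 with an adjusted p of 0.0534 without PBS 0 h replicate 2. Slc45a4, of a sugar carrier family and also described as a polyamine carrier in neurons, differed by 0.74, with FPKM of 1.96 and 2.26 in PBS 0 h, 0.871 and 0.943 in PBS 3 h, 1.33 and 1.32 in spermine 0 h, and 1.24 and 1.53 in spermine 3 h, and was lost with no filter (0.74) and without any of 6 libraries, at 0.65 to 0.81. Slc15a4 at 0.62 and Slc20a1 at 0.40 lay close to the threshold (adjusted p = 0.0463 and 0.0472) and were lost without most or all single libraries, at 0.51 to 0.71 and 0.34 to 0.45. Both were also lost with no filter and with no intensity trend, Slc15a4 with a pseudocount of 0.1 (0.67) and Slc20a1 with quantile normalization (0.30).

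Of those with a lower change in spermine, Slc4a11 differed by -1.06 (SE 0.13, adjusted p = 0.00479) and Slc25a12 by -0.68 (SE 0.10, adjusted p = 0.00845), and both passed under every alternative run. Slc4a11 reached an FPKM of 1 in no 0 h library and Slc22a23 in no PBS library, so their values here are a description and support nothing. The value of Slc43a3, whose level leaned on PBS 3 h, is a description as well. Slc22a23 differed by -1.33 (SE 0.22, adjusted p = 0.0128), on 5 to 25 reads per PBS library, and did not pass at -1.32 without PBS 0 h replicate 2, at -1.70 with a pseudocount of 0.1 (adjusted p = 0.118) or at -1.39 with voom on rebuilt reads (adjusted p = 0.247). Slc31a2 differed by -0.59 (SE 0.09, adjusted p = 0.0101), but not at -0.59 when PBS 0 h replicate 2 was left out or -0.58 when spermine 3 h replicate 2 was. Slc2a6 at -0.78, Slc43a3 at -0.68, Slc25a46 at -0.60 and Slc25a44 at -0.44 were lost without most single libraries, with values of -0.63 to -0.89, -0.60 to -0.72, -0.46 to -0.63 and -0.35 to -0.47. All 4 were also lost with a pseudocount of 0.1, with no filter and with TPM rescaling, at -0.66, -0.65, -0.51 and -0.32 with the last. Slc2a6, Slc25a46 and Slc25a44 were lost with quantile normalization and with no intensity trend, and Slc43a3 and Slc25a44 with voom.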

How the results depend on the processing

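Of 168 changes named by the rule or printed beyond it, 133 passed, of which 101 kept their direction and stayed past the threshold in every alternative run and 32 were lost or reversed in at least 1. With TPM rescaling, 88 members fell with IFN-β in PBS, 13 rose and 66 fell with IFN-β in spermine, 10 rose and 73 fell with spermine at 0 h, 15 rose with spermine at 3 h, and 4 had a lower log2 change with IFN-β in spermine than in PBS. Quantile normalization left 16 rising with spermine at 0 h. The shares of all genes under both scalings are given with the counts above. For the difference of the responses, no filter gave 11 higher and 4 lower, a pseudocount of 0.1 gave 3 lower and no intensity trend 5 lower. Leaving out each library gave 25 to 29 rising and 35 to 45 falling with IFN-β in PBS, 18 to 29 and 25 to 37 in spermine, 15 to 28 and 22 to 42 with spermine at 0 h, 17 to 25 and 19 to 30 at 3 h, and 4 to 15 higher and 2 to 7 lower for the difference of the responses.

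The labels do not say whether a replicate number marks a shared mouse or culture. Same-numbered deviations from the group means had correlations of 0.229, 0.2464 and 0.3708 among PBS 0 h, PBS 3 h and spermine 0 h, but of -0.0615, -0.089 and -0.126 for these groups with spermine 3 h, so pairing was not shared by all 4 groups and the number was not used in the reported fit. With the replicate number as a block, 31 rose and 47 fell with IFN-β in PBS, 27 and 36 in spermine, 28 and 45 with spermine at 0 h, 28 and 32 at 3 h, and 19 were higher and 11 lower for the difference of the responses.

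A change of sign occurred in 18 results, 2 of which had passed: the rise of Slc31a2 with IFN-β in spermine, at -0.094 with TPM, and that of Slc6a6 with spermine at 0 h, at -0.16 with TPM and -0.18 with quantile normalization. Among changes that had not passed, TPM turned Slc4a7 to -0.36, Slc12a2 to -0.31 and Slc25a1 to -0.37 with IFN-β in PBS, Slc19a1 to -0.18 and Slc12a2 to -0.13 with IFN-β in spermine, Slc31a1 to -0.031 with spermine at 0 h, and Slc25a28 to -0.11 and Slc4a7 to -0.17 at 3 h. Quantile normalization turned Slc19a1 to 0.038 and Slc25a1 to -0.32 with IFN-β in PBS, Slc12a2 to 0.039 with spermine at 0 h, and Slc25a28 to -0.025 and Slc12a2 to 0.053 at 3 h. Leaving out single libraries turned others, within these ranges. With IFN-β in PBS, Slc4a7 ran from -0.071 to 0.22, Slc19a1 from -0.035 to 0.027, Slc12a2 from -0.017 to 0.14 and Slc25a1 from -0.019 to 0.22. With IFN-β in spermine, Slc15a4 ran from -0.11 to 0.064, Slc25a37 from -0.15 to 0.052, Slc19a1 from -0.032 to 0.18 and Slc12a2 from -0.092 to 0.29. With spermine at 0 h, Slc12a2 ran from -0.15 to 0.0048. At 3 h, Slc25a28 ran from -0.16 to 0.35, Slc25a37 from -0.14 to 0.041, Slc4a7 from -0.13 to 0.17 and Slc12a2 from -0.23 to 0.15. For the difference of the responses, Slc19a1 ran from -0.028 to 0.19 and Slc12a2 from -0.15 to 0.23. The cause was not tested. With 2 libraries a group, small changes could not be resolved.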
